A study of Mus musculus with 12 samples.

Results

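Interferon-stimulated genes were followed through thymocytes and T-cell lymphoma cells of mice that differ in the DNA methyltransferase gene Dnmt1 and in the human oncogenic fusion kinase NPM-ALK. The 39 genes were taken by symbol from a list of interferon-stimulated genes, and all 39 were found among the 50600 Ensembl gene IDs of the count tables. Of these, 38 had enough reads to be tested, among 16052 genes tested in all. Igtp, an immunity-related GTPase, was listed at 0 in all 12 libraries.

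The study compared 4 groups of 3 mice, all on a mixed C57Bl/6xSV/129 background, by stranded poly(A) RNA-seq with 50-nt single-end reads. Ctrl was thymocytes of Dnmt1 fl/fl mice without Cre (25, 21 and 20 weeks), and KO was thymocytes of Dnmt1 fl/fl mice with Cd4-Cre (20, 20 and 21 weeks), so the floxed allele was shared by both and the deletion followed Cd4-Cre activity. ALK was tumor cells of mice carrying NPM-ALK under the Cd4 enhancer and promoter (24, 22 and 31 weeks), and ALKKO was thymocytes of NPM-ALK mice with Dnmt1 fl/fl and Cd4-Cre (25, 21 and 19 weeks). ALK and ALKKO therefore differed in both Dnmt1 status and in being tumor or thymus, which cannot be told apart here. Values are depth-scaled counts (CPM, with TMM factors) and are given in the order of mice 1, 2 and 3.

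Interferons are secreted alarm signals of infected or stressed cells. Type I interferons act through the receptor chains Ifnar1 and Ifnar2, the kinases Jak1 and Tyk2 and a complex that holds Stat2 and Irf9 and binds the interferon-stimulated response element (ISRE). Interferon gamma acts through its own receptor on genes with a gamma-activated sequence (GAS). The genes switched on this way sense foreign nucleic acid, block translation and degrade RNA, trap virions or tag proteins, and the thymus is known to keep a basal level of interferon signalling without infection.

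The ISRE is printed here because its core was found in most of the start-site windows at hand. RefSeq start-site windows (build GRCm38.p6, 250 bases before to 50 bases after the annotated start) were at hand for 29 of the 39 members. The ISRE core, searched as GAAANNGAAA on both strands with overlapping matches counted, was found in the windows of 19 of these 29 members (65.5%) and in 3.44% of all 32851 windows of the same length. The GAS letters TTCNNNGAA, whose reverse complement is the same, were found in 8.3% of all windows and in those of 8 of the 29 members. A match describes the letters only. Windows with the core belonged to Isg15, Ifit1, Ifit3, Ifit3b, Ifit1bl1, Oas1a, Oas3, Stat2, Ddx58, Ifih1, Eif2ak2, Gbp2, Gbp3, Gbp7, Igtp, Irgm1, Rsad2, Bst2 and Trim30a. Windows without it belonged to Ifit2, Oasl1, Oasl2, Irf7, Irf9, Isg20, Ifi44, Ifi35, Xaf1 and Ubd. No window was used here for Usp18, Oas2, Mx1, Mx2, Dhx58, Zbp1, Iigp1, Rtp4, Ifi27l2a and Parp14.

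The stretch before the start site is shown for 8 members, those with the largest log2 fold change of ALK against Ctrl among called members whose window held the core. Each runs 5′ to 3′ on the strand of its gene and ends at the base before the annotated start, with the ISRE core in capitals. Ifit1 (ENSMUSG00000034459.8) is at chr19:34640739-34640888 (plus strand), Ifit3b (ENSMUSG00000062488.9) at chr19:34607729-34607956 (plus strand), Ifit1bl1 (ENSMUSG00000079339.6) at chr19:34601969-34602118 (minus strand) and Ifit3 (ENSMUSG00000074896.3) at chr19:34583333-34583528 (plus strand). Oas3 (ENSMUSG00000032661.9) is at chr5:120777660-120777809 (minus strand), Oas1a (ENSMUSG00000052776.10) at chr5:120907526-120907675 (minus strand), Isg15 (ENSMUSG00000035692.6) at chr4:156200819-156200968 (minus strand) and Trim30a (ENSMUSG00000030921.17) at chr7:104465194-104465343 (minus strand).
Ifit1: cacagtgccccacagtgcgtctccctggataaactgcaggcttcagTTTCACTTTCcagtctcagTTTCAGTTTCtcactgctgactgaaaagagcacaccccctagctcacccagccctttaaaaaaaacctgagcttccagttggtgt
Ifit3b: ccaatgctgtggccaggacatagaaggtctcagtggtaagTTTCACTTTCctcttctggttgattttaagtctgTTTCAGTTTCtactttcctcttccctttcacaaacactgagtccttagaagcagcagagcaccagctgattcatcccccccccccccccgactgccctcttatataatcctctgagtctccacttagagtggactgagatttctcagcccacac
Oas3: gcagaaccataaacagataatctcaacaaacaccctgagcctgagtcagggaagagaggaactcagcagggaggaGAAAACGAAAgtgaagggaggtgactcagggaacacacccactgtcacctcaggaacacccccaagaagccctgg
Ifit1bl1: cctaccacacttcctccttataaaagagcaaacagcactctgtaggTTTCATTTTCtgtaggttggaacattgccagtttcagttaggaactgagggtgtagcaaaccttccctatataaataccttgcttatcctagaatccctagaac
Ifit3: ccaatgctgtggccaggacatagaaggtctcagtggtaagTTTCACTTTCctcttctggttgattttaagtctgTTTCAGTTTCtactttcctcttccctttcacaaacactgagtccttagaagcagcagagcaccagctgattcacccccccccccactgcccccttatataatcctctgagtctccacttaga
Oas1a: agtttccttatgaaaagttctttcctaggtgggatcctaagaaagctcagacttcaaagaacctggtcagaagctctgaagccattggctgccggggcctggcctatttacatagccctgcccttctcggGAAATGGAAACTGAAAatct
Isg15: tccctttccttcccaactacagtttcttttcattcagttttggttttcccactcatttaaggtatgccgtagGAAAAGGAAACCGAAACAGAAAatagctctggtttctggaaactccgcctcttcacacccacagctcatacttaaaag
Trim30a: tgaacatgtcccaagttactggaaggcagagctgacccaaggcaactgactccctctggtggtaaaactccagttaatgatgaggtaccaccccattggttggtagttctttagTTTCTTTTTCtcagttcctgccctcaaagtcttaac

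In Isg15, 3 overlapping matches began 78, 72 and 66 bases before the start. Ifit1 held matches 104 and 85 bases before it. Ifit3 and Ifit3b, neighbouring paralogs, shared an identical run of 169 bases that held both of their matches, at 156 and 122 bases before the start in Ifit3 and at 188 and 154 in Ifit3b. The matches of Ddx58, Ifih1 and Eif2ak2 lay after the start. The median log2 fold change of ALK against Ctrl was -1.62 over the 18 tested members with a core and -2.50 over the 10 without.

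**Figure D1:**
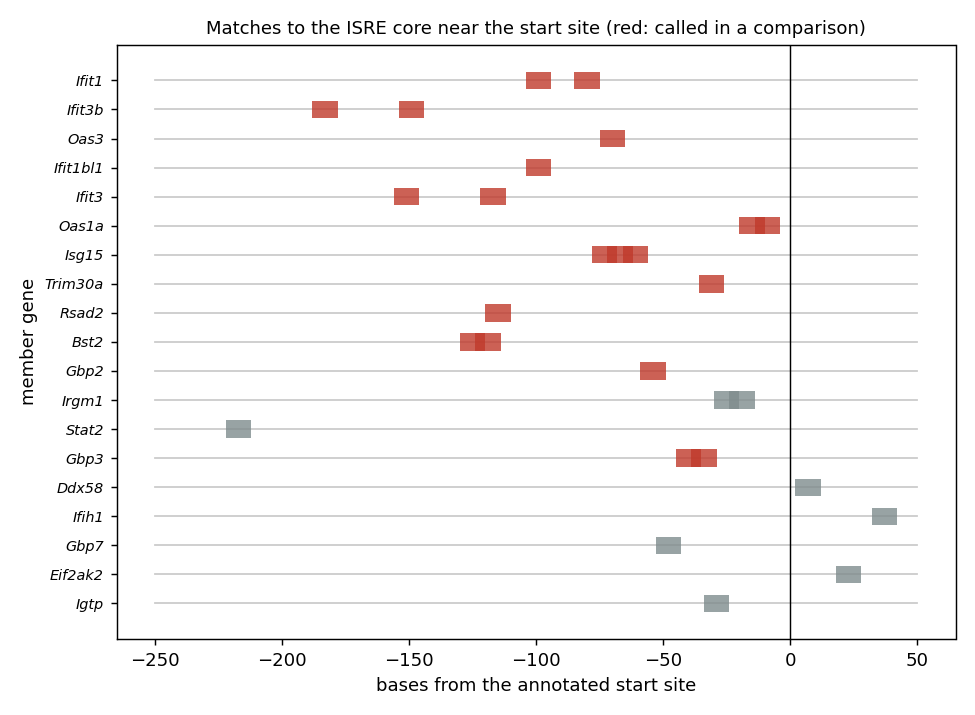
Position of each match to the ISRE core (bars, 10 bases long) in the start-site windows of the 19 members that hold one, in bases from the annotated start (vertical line), ordered by log2 fold change of ALK against Ctrl with the lowest at the top and the untested Igtp at the bottom. In 13 members a match begins 150 to 30 bases before the start, and red bars mark members called in a comparison.

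Library facts that touch every result come first. The 12 libraries held 12473857 to 18864327 reads on genes. Dnmt1 was at 400.0 to 487 CPM in Ctrl, 206 to 244 in KO, 205 to 244 in ALKKO and 379 to 788 in ALK, and reads on Alk reached 34.9 to 55.0 CPM in the libraries with the transgene against at most 0.431 in the others. KO mouse 2, the only female, stood apart. Its summed CPM over 8 B cell markers was 2441, against 70.6 to 127 in the other 8 thymocyte libraries, and its summed CPM over 13 thymocyte markers was 4233, against 9294 to 12350. This library is therefore given apart, and each KO result with and without it. It also enters the spread shared by the fit of all 12 libraries, so calls between other groups can depend on it. In ALK, the thymocyte markers summed to 4276 to 5397 CPM. Of the 12 tested, 5 were called lower than in Ctrl and 0 higher, beside 12% and 8.41% of all genes tested. Cd4 was at 27.5 to 116 CPM against 1287 to 1409 in Ctrl. The list did not move as 1, with Dntt overlapping at 1054 to 2942 against 1828 to 2061 CPM. Ptcra had a log2 fold change of 2.07 without a call.

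Counting also touched the members. The counts were as would be given by whole gene spans on the transcribed strand: of 559 protein-coding genes lying at least 99% inside another gene on the same strand, 88.2% had no read in any library, against 21.0% of 727 lying inside a gene on the other strand only and 19.6% of 12155 with no overlap. The span of Igtp lay 99.2% inside another gene on its strand, so its 0 says nothing of its expression. The same holds for Rag1, Irf8, Myd88, Trex1, Ifi47 and Gbp9 of the marker and pathway lists, which had no read and lay wholly inside another gene. Gbp6 lay 99.99% inside one, also with no read. Gbp4 and Ifi203 lay over 99% inside one, with at most 1 read in a library. Rtp4 overlapped by 42.4% and Gbp7 by 3.21%. Among pathway genes named below, Gbp8 overlapped by 49.4% and Ifnar2 by 42.3%, which limits their counts too. Reads that map to more than 1 place were not counted, which leaves the levels of near-identical paralogs such as Ifit3 and Ifit3b uncertain.

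ALK tumor cells had lower levels than Ctrl thymocytes of 20 interferon-stimulated genes, led by Ubd, Ifi44, Ifit1, Ifit3b and Oas3. Summed over the 38 members tested, the libraries held 1824, 1598 and 1640 CPM in Ctrl, 1617, 4742 and 1368 in KO, 814, 608 and 619 in ALK and 2190, 1807 and 2165 in ALKKO. By edgeR's quasi-likelihood test, with a gene called at a Benjamini-Hochberg adjusted p under 0.05 over all genes tested and an absolute log2 fold change above 1, 20 of 38 members were called lower in ALK than in Ctrl (52.6%) and 0 higher, against 12% and 8.41% of all genes tested. The median log2 fold change of the members was -2.04, beside 0.05 over all genes. In 31 of 38 members every ALK library lay below every Ctrl library, against 25.1% of all genes. In these bulk samples, fewer cells of a type and less RNA per cell cannot be told apart.

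**Figure D2:**
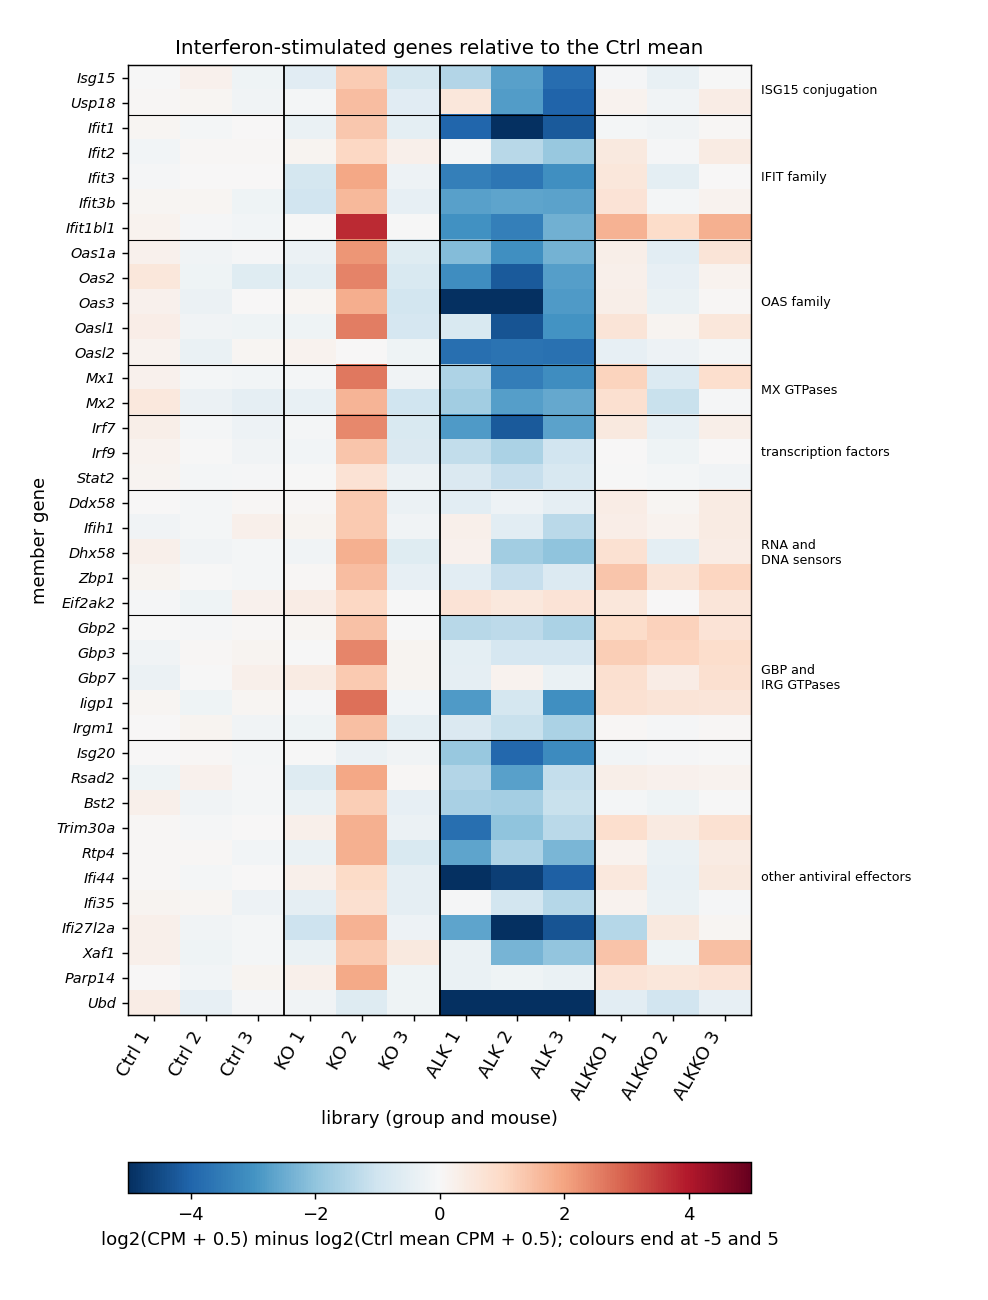
Heat map of the 38 tested members (rows, by role) in the 12 libraries (columns), as log2(CPM + 0.5) minus log2(Ctrl mean CPM + 0.5), with blue below and red above the Ctrl mean. The ALK columns are mostly blue, KO 2 is the reddest column, and KO 1, KO 3 and the ALKKO columns stay near the Ctrl mean.

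Isg15 encodes a ubiquitin-like protein that is joined to other proteins after interferon exposure, and Usp18 the protease that removes it and damps the receptor. Isg15 was at 29.3, 33.9 and 25.1 CPM in Ctrl, 19.6, 70.8 and 15.6 in KO, 10.3, 4.1 and 1.64 in ALK and 28.2, 22.8 and 29.1 in ALKKO. All 3 ALK values lay below all Ctrl values, and the fall was called (log2 fold change -2.45, SE 0.68, adjusted p = 0.022). Usp18 was not called (log2 fold change -0.83, SE 0.96, adjusted p = 0.542). It was at 65.9 CPM in ALK mouse 1, above the Ctrl range of 38.8 to 47.0, but at 5.94 and 2.27 CPM in the other ALK mice.

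Among the 5 members of the IFIT family, which bind viral RNA that lacks the host cap, 4 were called lower in ALK. They lie together on chromosome 19 between 34550694 and 34650009 (GRCm38). Ifit1 was at 36.7, 31.8 and 35.2 CPM in Ctrl, 27.3, 87.9 and 24.6 in KO, 1.75, 0.611 and 1.41 in ALK and 32.4, 30.5 and 36.1 in ALKKO. Ifit3, a partner of Ifit1, was at 12.5, 13 and 13.3 CPM in Ctrl, 6.78, 50.5 and 10.7 in KO, 0.739, 0.611 and 1.09 in ALK and 19.5, 9.09 and 13.3 in ALKKO. No ALK value of either gene came near a Ctrl value, and both falls were called (log2 fold change -4.76, SE 0.55, adjusted p = 0.000481 for Ifit1, and log2 fold change -3.97, SE 0.73, adjusted p = 0.00366 for Ifit3). Ifit3b, the paralog of Ifit3, was at 4.02, 3.97 and 3.13 CPM in Ctrl, 1.64, 12.4 and 2.63 in KO, 0.134, 0.175 and 0.156 in ALK and 6.17, 3.47 and 4.28 in ALKKO. Each ALK library held 2 reads of it (log2 fold change -4.52, SE 0.81, adjusted p = 0.00319), and the ratio of Ctrl to ALK over summed reads was 24.2 (95% exact interval 10.9 to 66.6, counting error only). Ifit1bl1, a relative of Ifit1, was at 6.71, 5.52 and 5.28 CPM in Ctrl, 5.83, 83.9 and 5.8 in KO, 0.269, 0.0873 and 0.704 in ALK and 20.5, 11.4 and 21.3 in ALKKO. Its ALK values were the lowest and KO mouse 2 the highest of the 12, with ALKKO above Ctrl in every mouse (log2 fold change -4.01, SE 1.12, adjusted p = 0.0228, in ALK against Ctrl). Ifit2 was not called (log2 fold change -0.93, SE 0.42, adjusted p = 0.117), with 39.5 CPM in ALK mouse 1 within the Ctrl range of 37.9 to 44.4 and 15.6 and 10.9 CPM in the other ALK mice.

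The OAS enzymes make a messenger that turns on the RNA-degrading enzyme RNase L, and Oasl1 and Oasl2 are relatives. Of these 5 members, on chromosome 5, 4 were called lower in ALK. Oas1a was at 11.9, 9.0 and 9.65 CPM in Ctrl, 8.27, 48.8 and 6.47 in KO, 1.88, 0.786 and 1.56 in ALK and 12.7, 6.94 and 16.2 in ALKKO. Oas2 was at 29.2, 17 and 12.8 CPM in Ctrl, 14, 112 and 11.3 in KO, 1.81, 0.611 and 2.5 in ALK and 23.4, 14.8 and 22.2 in ALKKO. Oas3 was at 27.4, 19 and 23.8 CPM in Ctrl, 25, 82.7 and 12.1 in KO, 0.202, 0.0873 and 2.82 in ALK and 28.6, 18.5 and 24.2 in ALKKO. In all 3 genes the ALK mice lay below every other library, and each fall was called (log2 fold change -2.84, SE 0.76, adjusted p = 0.0189 for Oas1a, log2 fold change -3.57, SE 0.90, adjusted p = 0.0148 for Oas2, and log2 fold change -4.49, SE 1.04, adjusted p = 0.0105 for Oas3). Oasl2 was at 76.1, 52.9 and 72.1 CPM in Ctrl, 76.1, 68.3 and 58 in KO, 4.5, 4.71 and 4.54 in ALK and 49.998, 56 and 62 in ALKKO. The ALK mice were close to each other, and KO mouse 2 stayed between the Ctrl values (log2 fold change -3.87, SE 0.19, adjusted p = 2.27e-06). Oasl1 ranged from 0 to 5.37 CPM in ALK and from 8.14 to 12.2 CPM in Ctrl and was not called (log2 fold change -2.20, SE 1.20, adjusted p = 0.189).

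The dynamin-like GTPases Mx1 and Mx2, of a family known to block incoming viruses, were both called lower in ALK. Mx1 was at 13.7, 10.9 and 10.7 CPM in Ctrl, 11.1, 75 and 10.5 in KO, 3.76, 0.611 and 0.938 in ALK and 25.8, 7.06 and 21.3 in ALKKO. Mx2 was at 13.1, 7.18 and 6.36 CPM in Ctrl, 6.73, 30.1 and 4.25 in KO, 2.28, 0.873 and 1.09 in ALK and 15.9, 3.83 and 8.62 in ALKKO. ALK lay below Ctrl in every mouse of both genes, while the ALKKO mice spread widely with mouse 2 lowest. The values in ALK against Ctrl were log2 fold change -2.71, SE 0.91, adjusted p = 0.0472 for Mx1 and log2 fold change -2.63, SE 0.81, adjusted p = 0.034 for Mx2.

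Irf7, the transcription factor that amplifies the type I response, was at 86.7, 65.4 and 59.3 CPM in Ctrl, 66, 370.02 and 41.7 in KO, 9.54, 3.32 and 10.5 in ALK and 98.5, 55 and 87.4 in ALKKO. The ALK mice lay below all others and KO mouse 2 above all others, and the fall in ALK was called (log2 fold change -3.17, SE 0.77, adjusted p = 0.0126). Stat2, of the trimer that binds the ISRE, was at 127, 108 and 109.7 CPM in Ctrl, 112, 188 and 94.8 in KO, 70.3, 51.5 and 66.5 in ALK and 114, 107 and 103 in ALKKO. Its ALK values did not overlap with Ctrl, at an adjusted p under the threshold but a fold below it (log2 fold change -0.87, SE 0.23, adjusted p = 0.0181). Irf9, the DNA-binding partner in that trimer, was at 27.3 to 41.9 CPM in ALK and 72.9 to 91.8 CPM in Ctrl, without overlap, and was not called (log2 fold change -1.24, SE 0.43, adjusted p = 0.0522). When KO mouse 2 was left out of the fit, Irf9 passed both thresholds (log2 fold change -1.27, adjusted p = 0.00148).

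None of the 5 nucleic acid sensors was called in ALK against Ctrl, where the median of their log2 fold changes was -0.41. These are Ddx58 (RIG-I) and Ifih1 (MDA5), which detect viral RNA, their relative Dhx58, Zbp1, which binds left-handed nucleic acid and can start cell death, and Eif2ak2 (PKR), which stops translation on double-stranded RNA. The log2 fold changes were -0.41 for Ddx58, -0.41 for Ifih1, -0.84 for Dhx58 and -0.77 for Zbp1. Ddx58 was at 47.2 to 57.8 CPM in ALK, below the 65.0 to 71.1 CPM of Ctrl. Ifih1 overlapped between the groups, at 9.93 to 31.1 CPM in ALK and 22.9 to 31.4 in Ctrl, as did Dhx58, at 4.54 to 23.2 and 17.6 to 23.6 CPM. Eif2ak2 was the only tested member with a value above 0 (log2 fold change 0.64, SE 0.26, adjusted p = 0.0891), at 49.1 to 55.5 CPM in ALK and 29.4 to 40.1 CPM in Ctrl. Zbp1 was at 67.7, 61.1 and 57.6 CPM in Ctrl, 64.6, 184 and 46.7 in KO, 42.6, 28 and 38.9 in ALK and 162, 97.9 and 131 in ALKKO. Its order was ALK below Ctrl below ALKKO, with no overlap between these groups.

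The guanylate-binding proteins and immunity-related GTPases, which attack the vacuoles of intracellular pathogens and respond also to interferon gamma, held 1 called member. Gbp2 was at 61.5, 60.2 and 65.4 CPM in Ctrl, 66.1, 174 and 61.9 in KO, 23.6, 24.6 and 20.4 in ALK and 117, 139 and 100.2 in ALKKO. Gbp3 was at 17.9, 21.1 and 22.4 CPM in Ctrl, 19.9, 113 and 22.3 in KO, 14.2, 11.1 and 11.1 in ALK and 48.1, 44.2 and 38 in ALKKO. Iigp1 was at 27.7, 22.3 and 27.4 CPM in Ctrl, 24.4, 177 and 23.3 in KO, 3.22, 13.8 and 2.66 in ALK and 44, 41 and 39.983 in ALKKO. The ALK mice were lowest for all 3 genes, with Iigp1 of ALK mouse 2 nearer to Ctrl. Gbp2 was called (log2 fold change -1.45, SE 0.34, adjusted p = 0.0115), while Gbp3 (log2 fold change -0.75, SE 0.55, adjusted p = 0.326) and Iigp1 (log2 fold change -1.98, SE 0.82, adjusted p = 0.0913) were not. Gbp7 (log2 fold change -0.18, SE 0.30, adjusted p = 0.666) and Irgm1 (log2 fold change -1.10, SE 0.45, adjusted p = 0.0871) were not called either. Gbp7 overlapped, at 37.0 to 56.9 CPM in ALK and 41.7 to 60.8 in Ctrl, while Irgm1 did not, at 25.7 to 47.97 and 69.5 to 87.6 CPM. The Gbp genes are close paralogs on chromosome 3, which leaves their counts less certain.

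The remaining 11 effectors held 7 called members. Ubd, the ubiquitin-like modifier FAT10 that sends proteins to the proteasome, was at 92, 52.5 and 68.3 CPM in Ctrl, 63.3, 45.1 and 61.7 in KO, 0.336, 0.262 and 0.156 in ALK and 48.4, 36 and 52.8 in ALKKO. The ALK libraries held 10 reads in all, and the ratio of Ctrl to ALK over summed reads was 278 (95% exact interval 151 to 579.9, counting error only). This was the lowest log2 fold change of the members (log2 fold change -8.08, SE 0.37, adjusted p = 1.58e-06). Ifi44 was at 27.8, 24.3 and 26.8 CPM in Ctrl, 31.3, 51.1 and 19.2 in KO, 0.269, 0.524 and 1.09 in ALK and 38.1, 20.3 and 37.2 in ALKKO. Isg20, an exonuclease, was at 77.1, 79.2 and 69.6 CPM in Ctrl, 75.2, 61.6 and 66.5 in KO, 19.6, 4.54 and 8.13 in ALK and 68.6, 71.5 and 74.7 in ALKKO. Ifi27l2a was at 94, 69 and 73.5 CPM in Ctrl, 38.5, 265 and 66.7 in KO, 12.2, 0.524 and 3.52 in ALK and 28.6, 111 and 83.6 in ALKKO. In these 3 genes no ALK library reached the lowest of the others, and the falls were called (log2 fold change -5.38, SE 0.55, adjusted p = 0.000297 for Ifi44, log2 fold change -2.80, SE 0.41, adjusted p = 0.00133 for Isg20, and log2 fold change -3.85, SE 1.004, adjusted p = 0.0173 for Ifi27l2a). Bst2 (tetherin), which holds budding virions on the cell, was at 109, 80.7 and 86.7 CPM in Ctrl, 73, 216 and 68.4 in KO, 29.3, 28.3 and 42.8 in ALK and 85.3, 79 and 90.1 in ALKKO. Trim30a was at 77.8, 72.6 and 75.7 CPM in Ctrl, 89.3, 259 and 60.7 in KO, 5.11, 18.3 and 29.6 in ALK and 135, 103 and 128 in ALKKO. Rtp4, a chaperone of receptors, was at 26.6, 27.1 and 23.4 CPM in Ctrl, 20.5, 90.2 and 14.8 in KO, 3.76, 8.38 and 4.93 in ALK and 29.5, 20.3 and 34.2 in ALKKO. ALK again lay below every other library, with the smallest relative distance in Bst2 (log2 fold change -1.46, SE 0.39, adjusted p = 0.02 for Bst2, log2 fold change -2.09, SE 0.61, adjusted p = 0.0277 for Trim30a, and log2 fold change -2.18, SE 0.62, adjusted p = 0.0241 for Rtp4).

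Rsad2 (viperin), an enzyme that makes a chain-terminating nucleotide, was at 10.2, 14 and 11.5 CPM in Ctrl, 7.53, 47.5 and 12.5 in KO, 3.96, 1.4 and 4.93 in ALK and 14.9, 14 and 13.5 in ALKKO. Xaf1, a promoter of cell death, was at 33.1, 24 and 25.7 CPM in Ctrl, 21.6, 69.3 and 38.8 in KO, 22, 5.06 and 6.65 in ALK and 74.9, 23.9 and 79.9 in ALKKO. Parp14, an ADP-ribosyltransferase and the member with the highest mean CPM, was at 109, 99.2 and 119 CPM in Ctrl, 132, 403 and 93.9 in KO, 86.5, 93.9 and 87 in ALK and 173, 162 and 176 in ALKKO. For these 3 genes the ALK libraries lay below all Ctrl libraries, although the size ran from slight in Parp14 to clear in Rsad2, and none was called (log2 fold change -1.79, SE 0.64, adjusted p = 0.0587 for Rsad2, log2 fold change -1.29, SE 0.63, adjusted p = 0.144 for Xaf1, and log2 fold change -0.29, SE 0.42, adjusted p = 0.625 for Parp14). Ifi35 was not called (log2 fold change -0.69, SE 0.40, adjusted p = 0.208), with 52.1 CPM in ALK mouse 1, within the Ctrl range of 45.2 to 59.5, and 28.5 and 19.9 CPM in the others.

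**Figure D3:**
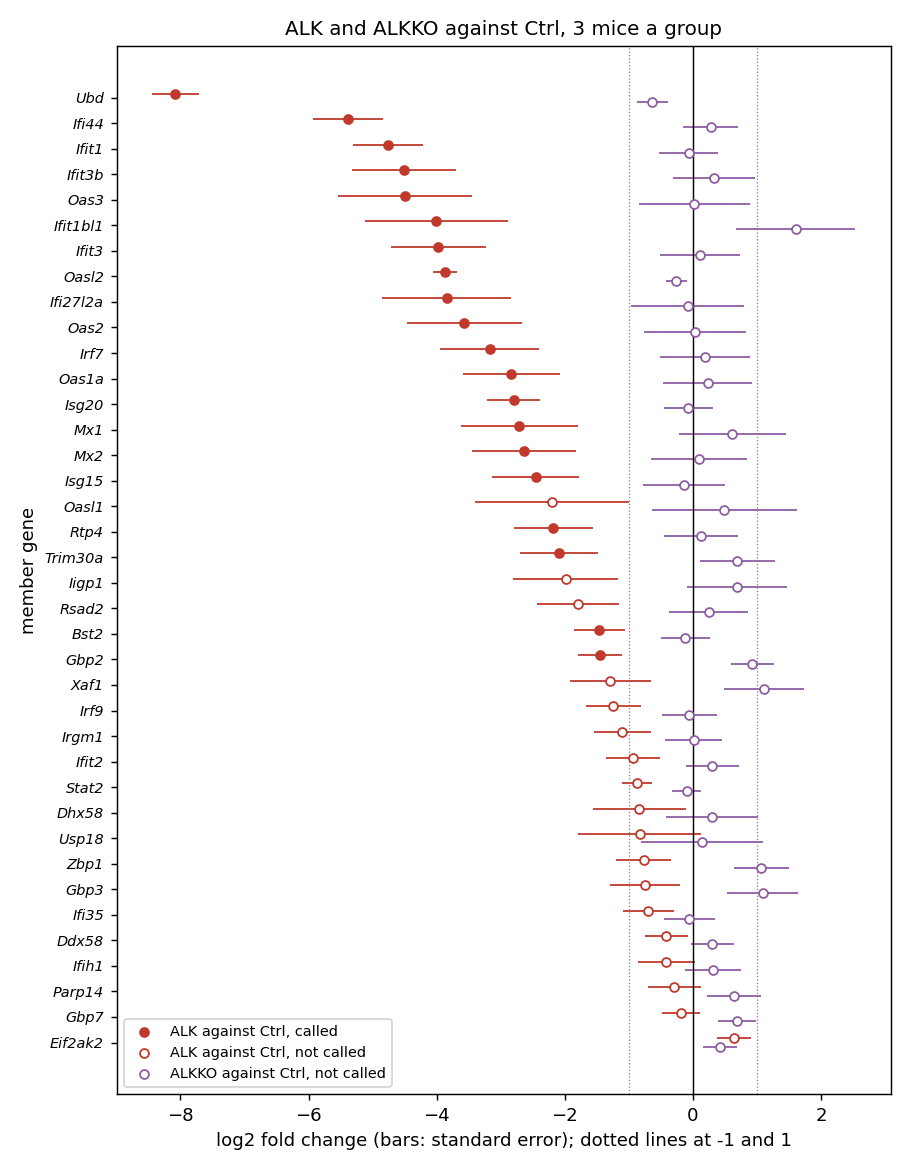
Log2 fold change with standard error for each of the 38 tested members in ALK against Ctrl (red) and ALKKO against Ctrl (purple), with filled points for called members, in order of the ALK value. The red points run from -8.08 for Ubd to 0.64 for Eif2ak2, and the purple points scatter around 0 with none called.

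Per length of annotated exon, the Ctrl levels were highest for Ifi27l2a at 170.3 ± 28.7 CPM per kb (SD, n = 3), Bst2 at 102 ± 16.2, Ubd at 76.2 ± 21.3, Isg20 at 40.5 ± 2.72 and Isg15 at 38.95 ± 5.83 CPM per kb. Bst2 and Ubd, neighbours in this order, differed by about the spread between mice, and Isg20 and Isg15 by less than it. In ALK the corresponding levels were 11.67 ± 13.1 for Ifi27l2a, 37.1 ± 8.96 for Bst2, 0.27 ± 0.10 for Ubd, 5.79 ± 4.23 for Isg20 and 7.07 ± 5.89 CPM per kb for Isg15. Bst2 was thus the highest of these 5 in ALK.

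The ALK mice did not share 1 level. ALK mouse 1 was the highest of the ALK mice in 20 of 38 members and ALK mouse 2 the lowest in 20. ALK mouse 1 was below all Ctrl libraries in 32 members, within the Ctrl range in 4 and above it in 2. The corresponding number below all Ctrl libraries was 36 in ALK mouse 2 and 37 in ALK mouse 3. These counts by mouse were not taken over all genes tested, so they describe the members only. Of the 20 calls, 9 held in every alternative setting that tested the gene (Ifit1, Ifit3, Ifit3b, Oas3, Oasl2, Irf7, Isg20, Ifi44 and Ubd). Oas2, Gbp2 and Ifi27l2a were lost when the change was tested against the fold threshold itself (glmTreat) and in no other setting. The other 8 were lost there and in further settings. Leaving out Ctrl mouse 1 ended all 8, at adjusted p of 0.0535 to 0.106 (Isg15, Ifit1bl1, Oas1a, Mx1, Mx2, Bst2, Trim30a and Rtp4). Leaving out ALK mouse 2 ended 7 of them (adjusted p = 0.0627 to 0.128), Ctrl mouse 2 ended 5 (0.0578 to 0.0863), Ctrl mouse 3 ended 4 (0.0539 to 0.0894), ALK mouse 1 ended 3 (0.0523 to 0.066) and ALK mouse 3 ended 3 (0.0566 to 0.109). Mx1 was also lost without ALKKO mouse 1 (0.0601) or ALKKO mouse 3 (0.0653), with no low-count filter (0.0679), with the replicate number as a block (0.066) and with age as a covariate, which also ended Rtp4 (0.0564 to 0.0809). Leaving out KO mouse 2, which is in neither group, ended none of the 20 calls and raised their count to 24. The calls gained were Irf9, Irgm1, Rsad2 and Iigp1 (adjusted p = 0.00148 to 0.0183).

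**Figure D4:**
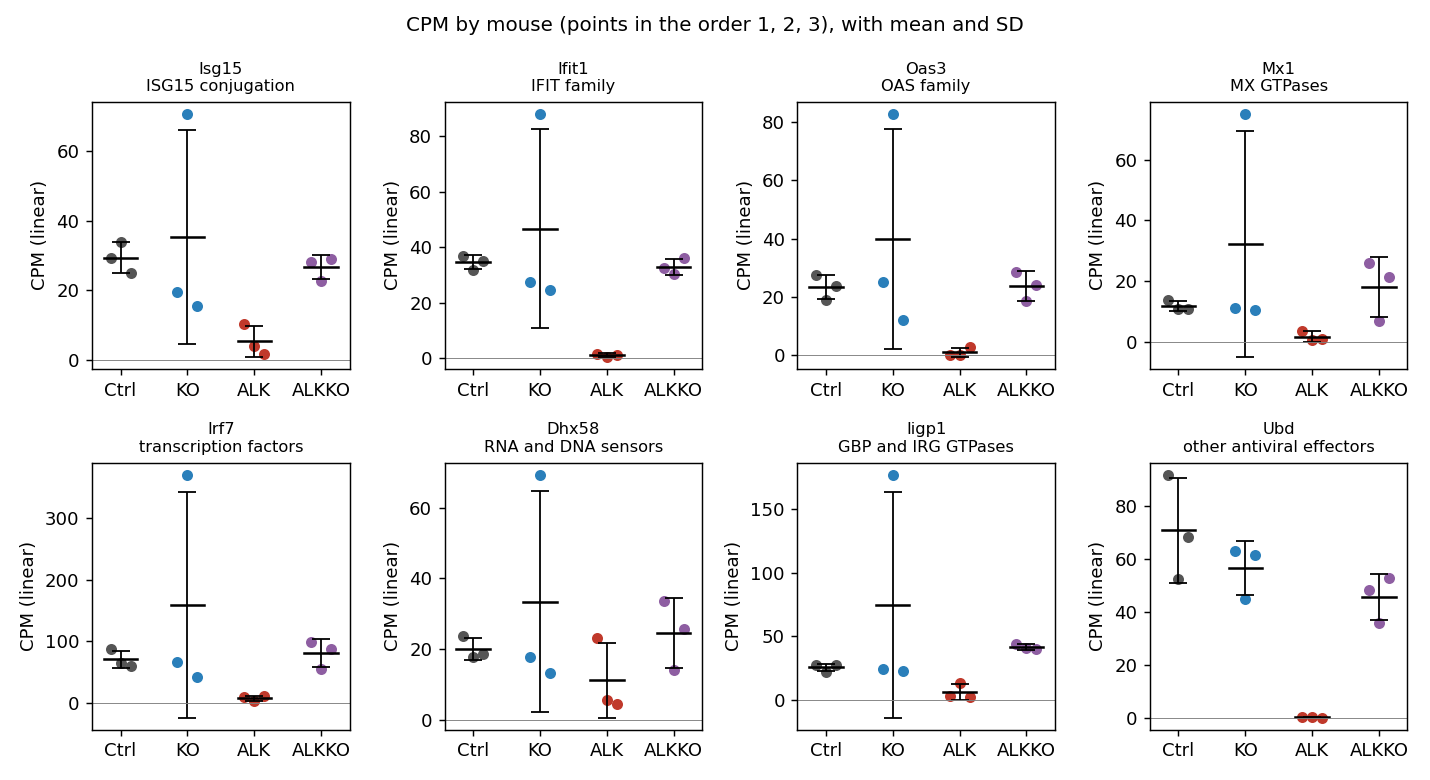
CPM on a linear scale in each mouse (points, in the order 1, 2 and 3), with the group mean (line) and SD (bars), for the member of each role with the largest log2 fold change of ALK against Ctrl. The ALK points of Isg15, Ifit1, Oas3, Mx1, Irf7, Iigp1 and Ubd lie under all Ctrl points, Dhx58 overlaps through ALK mouse 1 at 23.2 CPM, and KO mouse 2 is the highest point in every panel but Ubd.

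Against ALKKO thymocytes, which carry the same transgene, 25 of 38 members were called lower in ALK (65.8%) and 0 higher, beside 12.6% and 7.03% of all genes tested. These 25 held all 20 members called against Ctrl. The median log2 fold change was -2.39, beside 0.03 over all genes, and in 33 members every ALK library lay below every ALKKO library, against 23.7% of all genes. This comparison and ALK against Ctrl share the ALK mice and are not independent. The 5 further members were Zbp1 (log2 fold change -1.83, SE 0.44, adjusted p = 0.0123), Gbp3 (log2 fold change -1.84, SE 0.56, adjusted p = 0.0344), Iigp1 (log2 fold change -2.67, SE 0.84, adjusted p = 0.0373), Rsad2 (log2 fold change -2.04, SE 0.65, adjusted p = 0.0393) and Xaf1 (log2 fold change -2.40, SE 0.65, adjusted p = 0.0207). In all 5, ALKKO exceeded Ctrl in mean CPM, so the distance to ALK was wider than from Ctrl. The lowest values were again those of Ubd (log2 fold change -7.45, SE 0.36, adjusted p = 3.14e-06), Ifi44 (log2 fold change -5.66, SE 0.55, adjusted p = 0.000238) and Ifit1bl1 (log2 fold change -5.61, SE 1.17, adjusted p = 0.00674). Of these 25 calls, 12 held in every setting that tested the gene. Of the 5 further members, Zbp1 was lost in 1 of 22 settings (glmTreat), Xaf1 in 6 of 22, Gbp3 in 10 of 22, Rsad2 in 11 of 22 and Iigp1 in 11 of 21. Leaving out any single ALKKO mouse ended the calls of Gbp3, Iigp1 and Rsad2. Without ALKKO mouse 3, 16 members were called lower.

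In ALKKO against Ctrl, 0 of 38 members were called in either direction by edgeR and by DESeq2, beside 0.174% of all genes higher and 0.00623% lower. At an unadjusted p under 0.05, 3 members were higher and 1 lower with either tool. The 3 were Zbp1 (log2 fold change 1.07, SE 0.43, adjusted p = 1), Gbp2 (log2 fold change 0.93, SE 0.34, adjusted p = 1) and Gbp7 (log2 fold change 0.68, SE 0.30, adjusted p = 1), and the 1 was Ubd (log2 fold change -0.63, SE 0.25, adjusted p = 1). The median log2 fold change was 0.24, beside 0.01 over all genes, and became 0.12 without ALKKO mouse 1, 0.14 without ALKKO mouse 3 and 0.39 without ALKKO mouse 2. In 9 members every ALKKO library lay above every Ctrl library, against 9.92% of all genes. These 9 were Ifit1bl1, Ddx58, Zbp1, Gbp2, Gbp3, Gbp7, Iigp1, Trim30a and Parp14. When the fit held only these 2 groups, 3 members were called higher, namely Ifit1bl1, Zbp1 and Gbp3, and with sex as a covariate 1 was, Gbp3. All mice of these 2 groups were male and only KO mouse 2 was female. The covariate thus set that library apart and adjusted nothing between ALKKO and Ctrl.

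The ALKKO mice differed among themselves. ALKKO mouse 2 was the lowest of the 3 in 30 of 38 members, and ALKKO mice 1 and 3 both lay above all Ctrl libraries in 23. Neither count was taken over all genes tested. For Xaf1 the ALKKO values were 74.9, 23.9 and 79.9 CPM, and for Mx1 they were 25.8, 7.06 and 21.3 CPM. Ifi27l2a went the other way, with 28.6 CPM in mouse 1 and 111 and 83.6 CPM in the others.

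In KO against Ctrl, 0 of 38 members were called in either direction by edgeR and by DESeq2, beside 0.0187% of all genes higher and 0.0% lower. At an unadjusted p under 0.05, 4 members were higher in edgeR and 3 in DESeq2, and 0 were lower in both. In edgeR these 4 were Ifit1bl1 (log2 fold change 2.44, SE 0.96, adjusted p = 0.864), Gbp3 (log2 fold change 1.34, SE 0.55, adjusted p = 0.864), Gbp7 (log2 fold change 0.71, SE 0.30, adjusted p = 0.864) and Parp14 (log2 fold change 0.94, SE 0.42, adjusted p = 0.864). The median log2 fold change of the members was 0.65 with KO mouse 2 and -0.21 without it, beside 0.04 over all genes. Without that library 0 members were called, 0 passed an unadjusted p of 0.05, and 8 of 38 values were above 0, against 36 with it.

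KO mouse 2 differed from the other KO mice in most members. It was the highest of all 12 libraries in 34 of 38 members and above all Ctrl libraries in 35, at a median of 2.96 times the Ctrl mean (0.636 to 14.4). It reached at least 2 times the Ctrl mean in 32 members, against 16.6% of all genes tested, and at least 4 times in 8. The highest ratios were those of Ifit1bl1 (14.4), Iigp1 (6.84), Mx1 (6.37), Oasl1 (6.11), Oas2 (5.70), Gbp3 (5.54), Irf7 (5.25) and Oas1a (4.80). Ubd (0.636), Isg20 (0.818) and Oasl2 (1.02) did not share it. KO mouse 1 was above all Ctrl libraries in 8 members and below all in 13, and KO mouse 3 was above in 2 and below in 26. Ifit2 was the only member with both KO 1 and KO 3 above all Ctrl libraries, at 46.5 and 50.1 CPM against 37.9 to 44.4, and in 11 members both lay below all Ctrl libraries. The share of all genes above or below all Ctrl libraries was not taken for the KO libraries. Nor was that of genes highest of all 12 libraries, or at least 4 times the Ctrl mean, in KO mouse 2. These counts therefore describe the members only.

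**Figure D5:**
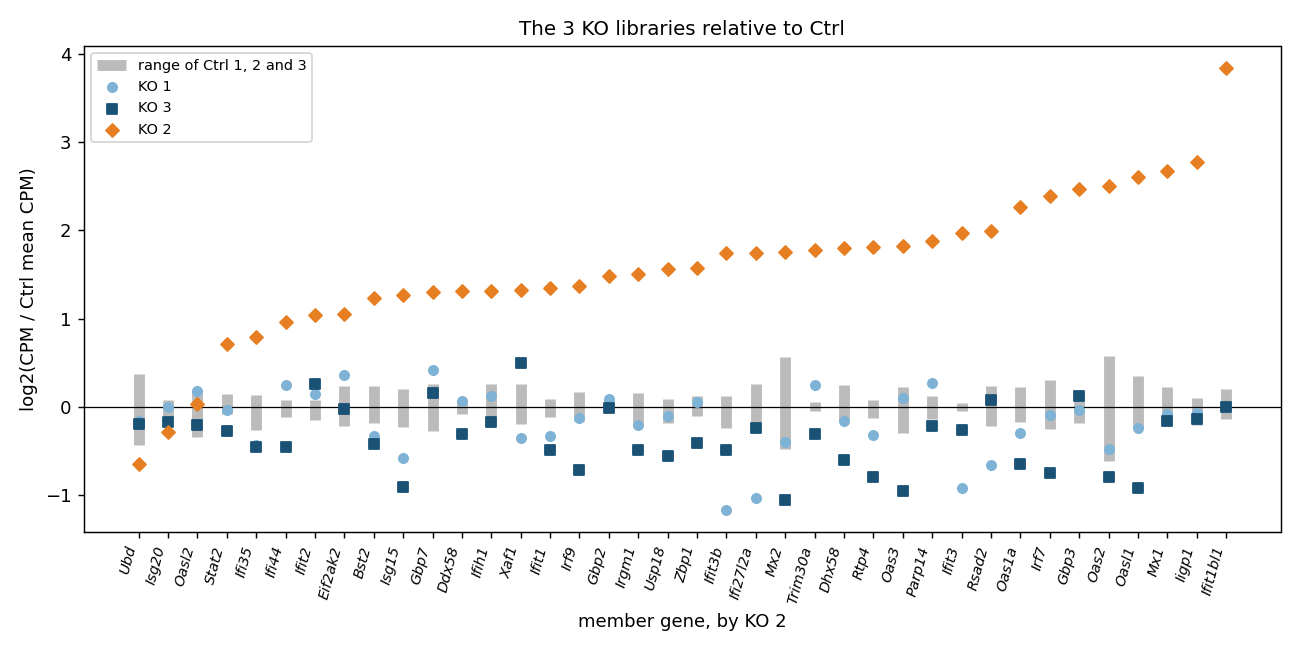
Log2 ratio of CPM to the Ctrl mean for each of the 38 tested members in KO mouse 1 (circles), KO mouse 2 (diamonds) and KO mouse 3 (squares), with the range of the Ctrl mice in grey, ordered by KO mouse 2. KO mouse 2 lies above the Ctrl range for 35 members, while KO mice 1 and 3 lie near or below it for most.

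Markers of several other cells moved with KO mouse 2. In addition to the B cell markers, the summed CPM of 12 macrophage and dendritic cell markers was 3028 in it against 778 to 1208 in the other thymocyte libraries, of 5 NK cell markers 60.4 against 9.1 to 20.9, and of 7 granulocyte markers 97.6 against 5.14 to 41.8. Those of 7 plasmacytoid dendritic cell markers did not move, at 871 within the 820 to 1040 of the other thymocyte libraries. Sums also lay above all other thymocyte libraries for thymic epithelial markers (5329 against 1869 to 2607) and mature T cell markers (1758 against 954 to 1228). The same held for stroma and endothelium markers (961 against 285 to 663) and erythroid markers (2427 against 150 to 1907). Proliferation markers were lower, at 1143 against 2130 to 2630. The part of other cells in the raised members was not tested. Relative to the Ctrl mean, the median over all genes tested was -0.01 in this library on the log2(CPM + 0.5) scale, and that over the members was 1.55.

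In ALKKO against KO, 0 members were called by edgeR and by DESeq2, beside 0.00623% of all genes higher and 0.0% lower, and 0 passed an unadjusted p of 0.05 in either tool. The median log2 fold change was -0.42 with KO mouse 2 and 0.54 without it, beside -0.02 over all genes. Without KO mouse 2, 36 of 38 values were above 0, 7 of them at an unadjusted p under 0.05, and 0 were called.

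The upstream genes of the pathway were read beside the members. For the counts of called genes below, 12% of all genes tested were called lower in ALK than in Ctrl and 8.41% higher. Of 21 interferon genes, none had enough reads to be tested and 15 had no read in any library. Ifnb1 had at most 0.086 CPM, in KO mouse 2. Ifng was at 0.476, 0.268 and 0.377 CPM in Ctrl, 0.053, 0.775 and 0.270 in KO, 0 in every ALK mouse and 0.303, 0.060 and 0.192 in ALKKO. Ifng held at most 9 reads in a library. Its ALK values lay below all its Ctrl values, but the gene was not tested. The other interferon genes held at most 2 reads in a library, so no change of these was detectable in these counts. The span of Ifnl2 lay wholly inside another gene on its strand and that of Ifng overlapped one by 56.2%, so the counts of both are limited by the counting as well as by depth.

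Of 6 receptor genes, 2 were called lower in ALK than in Ctrl and 0 higher. Ifngr1, the ligand-binding chain for interferon gamma, was at 437, 364 and 385 CPM in Ctrl and at 86.9, 38.8 and 160.5 in ALK (log2 fold change -2.05, SE 0.40, adjusted p = 0.00461). Ifngr2, its partner, was at 78.2, 66.4 and 64.7 CPM in Ctrl and at 18.3, 28.3 and 57.9 in ALK (log2 fold change -1.001, SE 0.33, adjusted p = 0.0447). Both chains for interferon gamma were thus lower in all 3 ALK mice. Ifnar1 was at 185, 174 and 174 CPM in Ctrl and at 82.6, 58.6 and 132 in ALK, with a log2 fold change just short of the threshold (log2 fold change -0.96, SE 0.23, adjusted p = 0.0123). Ifnar2 was not called (log2 fold change -0.30, SE 0.25, adjusted p = 0.386).

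None of 6 genes of the JAK-STAT relay, among them the members Stat2 and Irf9, was called in ALK against Ctrl. Of 9 interferon regulatory factors, 8 were tested, all but Irf8. The 2 called lower were the member Irf7 and Irf4 (log2 fold change -1.998, SE 0.67, adjusted p = 0.045), a lymphocyte factor. Irf1 was at 150, 143 and 140 CPM in Ctrl and 105, 97.3 and 102 in ALK (log2 fold change -0.51, SE 0.29, adjusted p = 0.206).

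Of 18 listed genes for nucleic acid sensing, 17 were found, 16 were tested and 1 was called lower in ALK, the DNA sensor Aim2 (log2 fold change -2.55, SE 0.65, adjusted p = 0.0155). Of 12 genes known as brakes on the response, 11 were tested, all but Trex1. Among them 2 were called lower, Samhd1 (log2 fold change -3.05, SE 0.64, adjusted p = 0.00662) and Socs1 (log2 fold change -1.78, SE 0.26, adjusted p = 0.00124), and 2 higher, Socs3 (log2 fold change 2.29, SE 0.56, adjusted p = 0.0134) and Rnaseh2b (log2 fold change 1.05, SE 0.24, adjusted p = 0.0101). Socs3 was at 32.6, 28.1 and 26.4 CPM in Ctrl, at 192, 50.6 and 182 in ALK and at 305, 236 and 238 in ALKKO. Every library with the transgene was above every Ctrl library for this target of Stat3. The rise in ALKKO against Ctrl was not called (log2 fold change 3.16, SE 0.58, adjusted p = 0.0958). KO was at 29.8, 80.9 and 19.1 CPM, with KO mouse 2 above ALK mouse 2.

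A longer list of 60 interferon-inducible genes outside the members held 52 tested genes. Of these, 17 were called lower in ALK than in Ctrl and 0 higher, beside 12% and 8.41% of all genes tested. Their median log2 fold change was -0.76. Against ALKKO, 24 were called lower and 0 higher, beside 12.6% and 7.03% of all genes tested. The largest falls against Ctrl were those of the chemokines Cxcl11 (log2 fold change -7.91, SE 1.35, adjusted p = 0.00397), which was at 0 in all 3 ALK mice so that its fitted value is no bound, and Cxcl10 (log2 fold change -6.01, SE 0.67, adjusted p = 0.000417). Then came the DNA-binding Ifi213 (log2 fold change -5.73, SE 0.86, adjusted p = 0.00144), Oas1g (log2 fold change -4.56, SE 0.81, adjusted p = 0.003), Gbp8 (log2 fold change -4.52, SE 0.58, adjusted p = 0.000737) and Ms4a4b (log2 fold change -4.24, SE 0.91, adjusted p = 0.00739). Cxcl10 was at 24.9, 26.2 and 18.1 CPM in Ctrl and at 0.605, 0.262 and 0.156 in ALK.

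Markers of other cells also moved with the fall in ALK. The shares of all genes tested for the calls below were again 12% lower and 8.41% higher. Summed CPM was 69.0 to 393 over 7 thymic epithelial markers in ALK against 2357 to 2487 in Ctrl (5 of 7 called lower), 128 to 303 against 820 to 1040 over 7 plasmacytoid dendritic cell markers (4 called lower, 1 higher), 12.2 to 33.5 against 70.6 to 124 over 8 B cell markers (1 called lower), 0.470 to 1.02 against 11.7 to 20.9 over 5 NK cell markers (4 called lower), and 0.134 to 3.83 against 19.7 to 24.4 over 7 granulocyte markers (3 called lower). The defining epithelial gene Psmb11 was at 0.067 to 0.349 CPM in ALK against 106 to 130 in Ctrl. In the 12 macrophage and dendritic cell markers the ranges overlapped, at 506 to 1357 against 778 to 877 CPM, with 2 called lower. Stroma and endothelium markers were higher, at 1161 to 2509 against 285 to 423 CPM (3 of 7 called higher). Mature T cell markers held 3 genes called lower and 1 higher (of 9), and neither the erythroid nor the proliferation list held a called gene. Some listed genes mark more than 1 cell type, as Ccr9 is also a thymocyte gene and Cd74 also a B cell and dendritic cell gene. The part of these cells in the lower members was not tested. In ALKKO, where 0 members were called lower than in Ctrl, the same sums were 2006 to 2291 for epithelial, 823 to 929 for plasmacytoid dendritic cell and 79.0 to 127 for B cell markers. The epithelial sum does not follow epithelium alone. In KO mouse 2 it was 5329 CPM, while the median log2 fold change of that list in KO against Ctrl was -0.40.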

How the data were processed

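Per the study's methods, the authors trimmed the reads with Trim Galore, aligned them to mm10 with STAR and counted them with HTSeq. They deposited, per library, a table of raw counts by Ensembl gene ID. The processing notes also name Picard 2.19.2. Genome coordinates and lengths are from GENCODE M21 (50376 of 50600 IDs matched). Summary lines that name no gene, such as reads that map to several places, stayed out of library sizes. Here, genes passing filterByExpr were fitted in edgeR 4.0.16 (R 4.3.3) by robust quasi-likelihood over all 12 libraries with TMM scaling. The members and all gene lists were chosen with earlier results of these data known, so no test was run over a list. Every member was named. CPM by mouse was given for the 25 called members and the 5 of highest mean CPM (27 genes), and the others by range. At most 6 called genes of each pathway list were given. Mice were separate animals. Alternatives were DESeq2 1.42.0, filters, covariates and leaving out each library. The values of 1 gene that is counted in the pathway lists are not reported here.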

Additional observations from a re-analysis of the deposited data

How the results depend on the processing

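Under 10 alternative settings and with each of 12 libraries left out, 0 members changed from a called fall to a rise. For ALK against Ctrl, 20 members were called lower. This became 10 with at least 10 counts in every library, which left 26 members, and 9 with glmTreat. It became 12 to 24 when 1 library was left out (lowest without Ctrl mouse 1, highest without KO mouse 2). The median of -2.04 became -1.26 over those 26 members, and -2.12 to -1.89 when 1 library was left out. For ALK against ALKKO, the count of 25 became 15, 13 and 16 to 28 (lowest without ALKKO mouse 3, highest without KO mouse 2). The median of -2.39 became -1.68 over the 26 members and -2.79 to -2.27 when 1 library was left out (lowest without ALK mouse 1). The count minimum left out members with under 10 counts in any library, among them Ubd, Ifi44 and Ifit1, which were low in ALK. It thus selected partly on the ALK level, so its counts and medians are not over the same members. The cause of the changes under the other settings was not tested. For ALKKO against Ctrl, 0 became 1 with sex as a covariate and 3 with only the 2 groups. The KO against Ctrl median of 0.65 became -0.21 without KO mouse 2 and -0.22 with sex as a covariate, which marks only that mouse, the only female. It reached 0.93 without KO mouse 3. The ALKKO against KO median of -0.42 became 0.54 in both of the first settings, and reached -0.75 without KO mouse 3 and -0.69 without KO mouse 1. The ALKKO against Ctrl median of 0.24 ran from 0.12 (without ALKKO mouse 1) to 0.39 (without ALKKO mouse 2) when 1 library was left out.

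The replicate numbers in the labels gave no evidence of pairing. Correlations of same-numbered deviations ran from -0.13 to 0.44, with 5 of 18 pairs above 0.1, and 5 of 12 libraries were closest to their own number. With the replicate number as a block, 20 members were lower in ALK than in Ctrl and 23 lower than in ALKKO, with 0 called in the other comparisons. The block ended the call of Mx1 against Ctrl (adjusted p = 0.066) and those of Rsad2 and Ifi27l2a against ALKKO (0.0504 to 0.0687), and added Iigp1 against Ctrl (0.033). DESeq2 gave no adjusted p for Ifit1bl1 and Iigp1 in ALK, so neither counts as lost there. Genes at a few reads, such as Ifit3b and Ubd in ALK, are limited by depth in the size of their change.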
